A study of Homo sapiens with 36 samples.

Results

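The 60 genes described here act in the G2 phase of the cell cycle and in mitosis: cyclins, entry kinases and phosphatases, spindle checkpoint, chromosomal passenger and kinetochore proteins, kinesins, spindle assembly factors, cytokinesis proteins and condensin subunits. They were chosen by name from what they are known to do. No measured value entered that rule, but earlier results of these data were known when they were chosen. Each of the 60 symbols matched 1 Ensembl identifier among the 74628 in the table of counts. The cells were Jurkat, a human T-lymphocyte leukaemia line, carrying dCas9-VP64 and described as mCherry+, so every sample contained this nuclease-dead Cas9 fused to an activator of transcription. A lentiviral pXPR-type vector brought in 1 guide, either sgRELA, aimed at RELA, the gene of the p65 subunit of NF-kB, or sgControl, which is listed as non-targeting. After 3 days of puromycin selection, cells were taken 5, 6 or 7 days after transduction. The 6 groups were thus sgControl and sgRELA on each of these days, with 3 samples a group from triplicate transductions, and with 2 RamDA-seq libraries from 100 pg of RNA for each of the 18 RNA samples. RamDA-seq reads total RNA over the full length of transcripts. No untransduced cells and no other guide to RELA were analysed here. The labels do not say whether samples of different days came from the same culture, or how harvest, RNA extraction and library making were divided, so day and any batch of this kind cannot be told apart.

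Genes of this kind are transcribed late in the cell cycle, so that their RNA is high in cells in G2 and mitosis and low in cells in G1. Many are held down outside that window by the DREAM complex and switched on by B-MYB with MuvB and by FOXM1, through a short promoter element named the cell cycle genes homology region (CHR) and through CCAAT boxes bound by NF-Y. They therefore serve as markers of proliferation. In RNA from a whole culture, fewer cells in G2 and mitosis and less of these RNAs in each such cell cannot be told apart.

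RELA, the targeted gene, was measured at 29.3 to 39.3, 20.2 to 30.9 and 22.4 to 26.5 CPM (counts adjusted for library size) on days 5, 6 and 7 under sgControl, and at 263 to 319, 187 to 223 and 119.8 to 136 CPM under sgRELA. Summed counts per RNA sample came to 18769530 to 29503934. Of the T-cell marker list, 10 genes summed to 2080 to 2661 CPM on days 5 and 6 and to 2876 to 3097 CPM on day 7. The B-cell list reached 16.5 to 26.2 CPM under sgControl and 48.4 to 62.7 CPM under sgRELA, nearly all of it CD79A, while myeloid markers summed to at most 2.84 CPM and erythroid markers to at most 0.0914 CPM. The list of adherent cell markers summed to 183 to 246 CPM, nearly all of it VIM, which many blood cells also express, with group means of COL1A1 of 2.93 to 9.15 CPM, at most 1 count of KRT19 in a sample and EPCAM at 0. Other properties also differed by day. Totals were lower on day 6 (18769530 to 22147753) than on day 7 (24051818 to 26147414), the number of genes detected was 31086 to 32280, 31969 to 32809 and 31401 to 32139 on days 5, 6 and 7, and mitochondrial genes took 7.43% to 9.28%, 8.33% to 9.87% and 7.41% to 7.85% of the counts. The part of these in the results on day was not tested.

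The promoters of the members carry the letters of the element named above in many cases, and windows of 7 genes are shown. CDK1, CCNB1, PLK1, MKI67 and TOP2A were to be named in any case. MYBL2 and CDC25C were added by choice, CDC25C after its values were seen. The day pattern of these genes, as of other members, is described in what follows. RefSeq promoter windows on GRCh38.p14, from 250 bases before to 50 after a start site, were matched by symbol for 50 of the 60 members and numbered 64, since some genes have several. Each was searched on both strands for CCAAT, for TTTGAA or TTTAAA (the letters of the CHR) and for the E2F letters TTTCCCGC, TTTCGCGC, TTTGGCGC and TTTGCCGC. The CHR letters were in 47 of the 64 windows (73.4%, against 24.0% of all 35116 windows), and CCAAT was in 44 (68.8%, against 34.6%). At least 2 CCAAT together with CHR letters were in 23 windows (35.9%, against 2.73%). The E2F letters were in 5 windows (7.81%, against 3.31%). For comparison, the 64 windows of 48 G1/S and replication genes held CHR letters in 12.5%, CCAAT in 54.7% and E2F letters in 39.1%. A match describes letters only and not binding, none of these shares was tested, and windows of one gene can overlap. Capitals below mark every match to one of the searched words, and the start site follows base 250.

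Of the windows shown, that of CDK1 lies at chr10:60778081-60778380 on the plus strand and holds 2 CHR matches, 1 CCAAT and 1 E2F match. A second CDK1 window, at chr10:60778228-60778527, overlaps it, has 3 CHR matches, 2 CCAAT and 1 E2F match, and is not printed. That of CCNB1 lies at chr5:69166900-69167199, plus strand, with 1 CHR match and 2 CCAAT, and that of PLK1 at chr16:23678639-23678938, plus strand, with 3 CHR matches and 1 CCAAT. The MKI67 window at chr10:128126374-128126673, minus strand, has 2 CHR matches and 2 CCAAT, of which one of each share 1 base, and the TOP2A window at chr17:40417847-40418146, minus strand, has 2 CHR matches and 4 CCAAT. CDC25C has 4 windows, of which the one at chr5:138338306-138338605 and the one at chr5:138331828-138332127, both on the minus strand, are shown. The former has no match, and the latter has 1 CHR match and 3 CCAAT. MYBL2, at chr20:43666864-43667163 on the plus strand, has no match to any of these words.
CDK1: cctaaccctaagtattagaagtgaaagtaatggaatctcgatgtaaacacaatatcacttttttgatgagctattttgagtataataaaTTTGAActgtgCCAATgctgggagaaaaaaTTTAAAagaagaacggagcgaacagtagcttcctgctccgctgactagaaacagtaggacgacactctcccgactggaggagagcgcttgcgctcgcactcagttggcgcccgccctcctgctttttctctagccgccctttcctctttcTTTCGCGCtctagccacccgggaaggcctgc
CCNB1: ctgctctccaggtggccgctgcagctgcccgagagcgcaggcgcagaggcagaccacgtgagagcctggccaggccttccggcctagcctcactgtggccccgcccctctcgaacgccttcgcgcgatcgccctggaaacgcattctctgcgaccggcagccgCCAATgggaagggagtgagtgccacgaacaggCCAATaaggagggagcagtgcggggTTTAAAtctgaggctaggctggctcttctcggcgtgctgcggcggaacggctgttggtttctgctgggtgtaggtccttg
PLK1: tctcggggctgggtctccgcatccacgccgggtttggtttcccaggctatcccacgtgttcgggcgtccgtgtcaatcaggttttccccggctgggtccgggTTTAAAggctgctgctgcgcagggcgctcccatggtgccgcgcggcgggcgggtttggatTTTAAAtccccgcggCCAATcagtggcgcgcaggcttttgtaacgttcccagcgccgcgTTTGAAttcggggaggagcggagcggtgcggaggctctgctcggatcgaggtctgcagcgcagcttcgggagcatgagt
MKI67: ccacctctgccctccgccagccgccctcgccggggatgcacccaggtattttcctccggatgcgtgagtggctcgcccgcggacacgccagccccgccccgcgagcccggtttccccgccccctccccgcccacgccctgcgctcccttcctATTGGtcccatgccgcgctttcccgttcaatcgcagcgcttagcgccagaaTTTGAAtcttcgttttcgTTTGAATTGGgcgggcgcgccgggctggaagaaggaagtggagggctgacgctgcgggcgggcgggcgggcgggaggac
TOP2A: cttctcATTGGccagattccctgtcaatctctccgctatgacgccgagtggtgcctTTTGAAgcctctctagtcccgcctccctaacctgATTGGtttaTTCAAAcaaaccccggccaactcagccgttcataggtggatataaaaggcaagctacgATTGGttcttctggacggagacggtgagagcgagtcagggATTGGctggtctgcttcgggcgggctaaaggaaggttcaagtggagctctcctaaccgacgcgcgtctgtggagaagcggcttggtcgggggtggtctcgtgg
CDC25C, upstream start: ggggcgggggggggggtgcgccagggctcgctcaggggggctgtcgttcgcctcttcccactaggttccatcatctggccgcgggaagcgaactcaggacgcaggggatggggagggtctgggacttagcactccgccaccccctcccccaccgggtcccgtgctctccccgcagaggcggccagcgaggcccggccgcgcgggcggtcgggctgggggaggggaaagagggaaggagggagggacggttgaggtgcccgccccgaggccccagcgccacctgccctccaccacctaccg
CDC25C, downstream start: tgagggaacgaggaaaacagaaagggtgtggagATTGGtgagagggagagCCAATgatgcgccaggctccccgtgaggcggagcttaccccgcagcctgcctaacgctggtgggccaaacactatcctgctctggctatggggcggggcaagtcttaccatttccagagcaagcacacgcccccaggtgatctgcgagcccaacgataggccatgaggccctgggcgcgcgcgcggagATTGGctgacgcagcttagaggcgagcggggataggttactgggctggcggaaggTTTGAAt
MYBL2: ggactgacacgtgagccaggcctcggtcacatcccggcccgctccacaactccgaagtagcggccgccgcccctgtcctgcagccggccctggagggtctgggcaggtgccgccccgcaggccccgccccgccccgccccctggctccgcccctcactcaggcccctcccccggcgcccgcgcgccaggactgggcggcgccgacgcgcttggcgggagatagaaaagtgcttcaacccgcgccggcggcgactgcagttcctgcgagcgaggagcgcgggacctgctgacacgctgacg

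The matches were not spread evenly over the windows. Of 90 CCAAT matches in the members' windows, 62.2% had their centre in the 100 bases before the start site, against 44.3% of 17602 matches in all windows. Of 73 CHR matches, 57.5% were within 50 bases of the start site on either side, against 26.6% of 11212. Both are descriptions of letters near annotated starts.

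**Figure D1:**
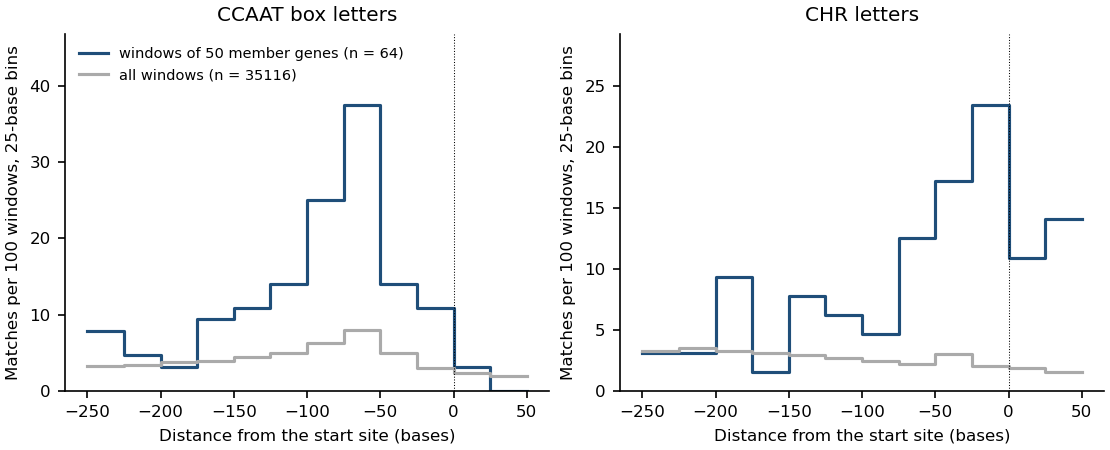
Matches per 100 promoter windows in bins of 25 bases against the distance from the start site, for CCAAT (left) and the CHR letters TTTGAA or TTTAAA (right). The blue line is the 64 windows of 50 members and the grey line all 35116 windows; CCAAT peaks before the start and the CHR letters close to it.

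The first question was how the genes moved over the days after transduction. Their summed counts took 0.625%, 0.652% and 0.661% of all counts in the 3 sgControl samples of day 5, 0.400%, 0.454% and 0.421% on day 6 and 0.838%, 0.812% and 0.819% on day 7. Under sgRELA the shares were 0.592%, 0.617% and 0.621% on day 5, 0.403%, 0.408% and 0.418% on day 6 and 0.854%, 0.834% and 0.825% on day 7. In both guides the genes were thus lowest on day 6 and highest on day 7, and no sample of one day overlapped with a sample of another. The same held for the 36 single libraries, which ranged from 0.574% to 0.690% on day 5, from 0.347% to 0.458% on day 6 and from 0.783% to 0.856% on day 7.

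**Figure D2:**
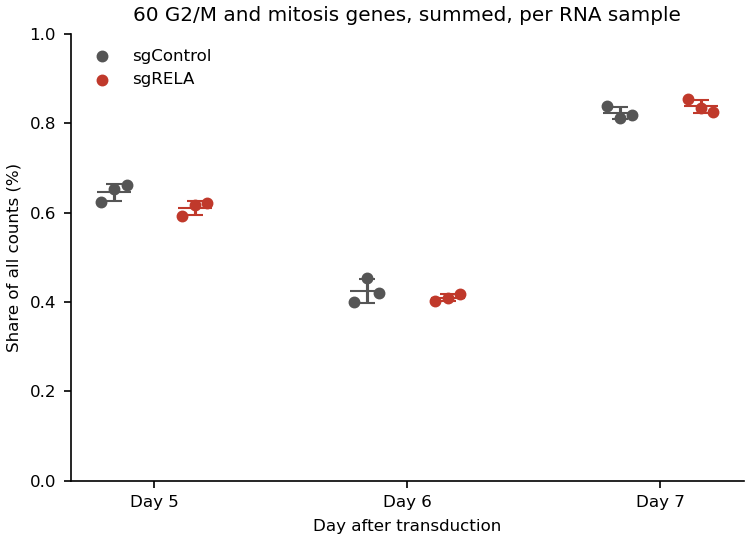
Share of all counts, in percent, taken by the 60 genes in each of the 18 RNA samples, by day and guide. Points are RNA samples, and the horizontal mark and bars are the mean and SD of 3; all day 6 samples lie between 0.400% and 0.454%, below every day 5 sample, and all day 7 samples lie between 0.812% and 0.854%.

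Gene by gene, differences were tested with edgeR on the whole table of 27553 genes that passed a filter on low counts, and a gene was called at a Benjamini-Hochberg adjusted p under 0.05. All 60 members passed that filter, the lowest with 150 counts in its lowest sample. From day 5 to day 6, 53 of the 60 fell under sgControl, where 5.58% of all genes tested fell, and 50 fell under sgRELA, where 4.34% did. From day 6 to day 7, 59 rose under each guide, against 8.25% of all genes under sgControl and 7.21% under sgRELA. Day 7 also exceeded day 5, with 31 members higher under sgControl (6.65% of all genes) and 40 under sgRELA (6.35%). No member was called in the opposite direction in any of these 6 comparisons. Scaling by the total count alone left the calls of the members in the same direction, with 50 and 49 falls, 59 and 59 rises, and 27 and 38 rises, but moved the calls over all genes. Of these, 55.5% in place of 37.1% were higher on day 6 than on day 5 under sgControl and 49.1% in place of 37.2% under sgRELA, and 40.3% in place of 56.7% and 44.6% in place of 59.0% were higher on day 7 than on day 6. With the first library of each RNA sample alone, 31 and 13 members fell from day 5 to day 6, 56 and 52 rose from day 6 to day 7, and 8 and 16 were higher on day 7 than on day 5 under sgControl and sgRELA. Days 5, 6 and 7 each enter 2 comparisons within a guide, so these comparisons are not independent of one another.

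The median log2 fold change of the 60 genes between day 5 and day 6 was -0.75 under sgControl and -0.67 under sgRELA, while that of all genes was 0.04 and 0.03. Between day 6 and day 7 it was 1.15 and 1.18, with -0.07 and -0.06 over all genes. Between day 5 and day 7 it was 0.37 and 0.49, with -0.01 and -0.01 over all genes. Counting samples only, 55 members under sgControl and 54 under sgRELA had all 3 day 6 samples below all 3 day 5 samples, against 11.5% and 13.4% of all genes. Day 7 lay above day 6 without overlap for 59 members under either guide, against 13.9% and 14.6% of all genes, and above day 5 for 40 and 50, against 14.7% and 15.1%.

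The calls in the 2 guides compare separate samples but come from a single fit with a shared estimate of the spread. They concerned largely the same members. Of the falls between day 5 and day 6, 50 were called under both guides, and CDC25A, BIRC5 and KIF14 under sgControl alone. The CDC25A call was lost without replicate 2 of sgControl day 5 (adjusted p = 0.137) or replicate 1 of sgControl day 6 (adjusted p = 0.0742), and the BIRC5 call without replicate 3 of sgControl day 6 (adjusted p = 0.102). CCNF, CDC25C, BUB3, GTSE1, CDCA3, AURKB and SPC25 were called under neither. The 59 rises from day 6 to day 7 were the same 59 under both guides, with CDC25C the gene left out. Between day 5 and day 7, 29 members were called under both guides, 2 under sgControl alone and 11 under sgRELA alone. Whether the guides differ in these changes is tested further on. Over the 60 members, the log2 changes under the 2 guides had a Pearson r of 0.87, 0.86 and 0.87 for the 3 pairs of days, which is a correlation across genes measured in the same libraries. Their r with log2 exon length lay between -0.28 and 0.05.

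**Figure D3:**
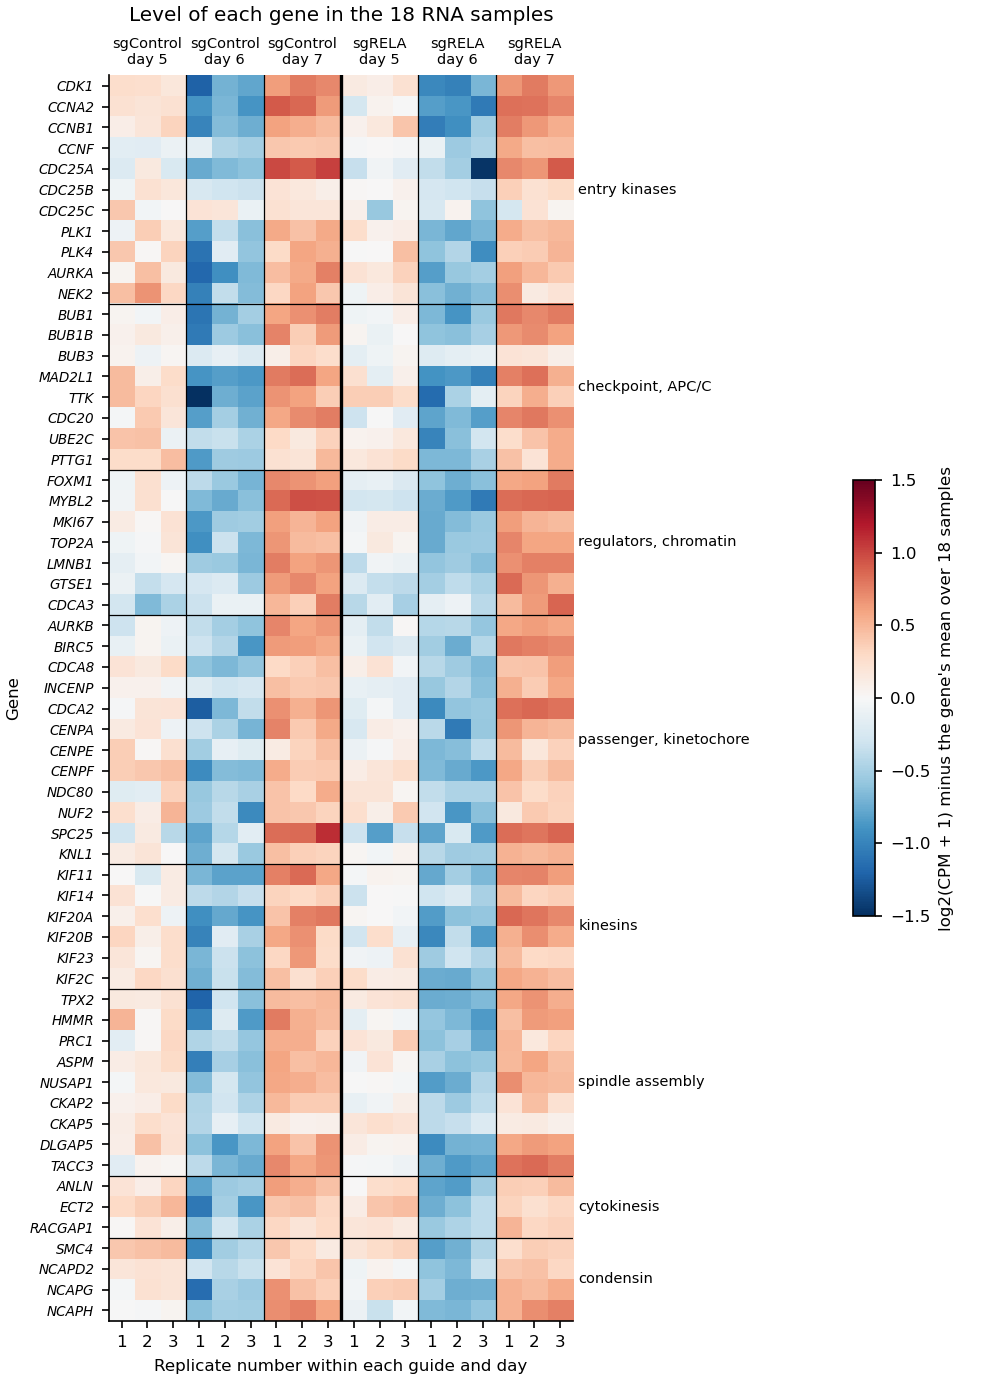
Level of each of the 60 genes (rows, grouped by role) in the 18 RNA samples (columns, grouped by guide and day), as log2(CPM + 1) minus the gene's mean over all samples. Blue columns on day 6 and red columns on day 7 run through nearly all rows under both guides; CDC25C and CDCA3 are the rows that depart from this on day 6.

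Within these 60, levels differed widely. Per kilobase of GENCODE v29 exon, the mean over the 6 groups ran from 3.78 CPM for CDC25C, 4.43 for KIF20B and 4.88 for CENPE to 53.3 for TPX2, 54.1 for CKAP5, 54.4 for MYBL2, 56.8 for CDC20 and 61.0 for TOP2A, with a median of 17.3. In that annotation 33 of the members overlap another gene. The sources used here do not give how such reads were counted.

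The entry kinases, cyclins and phosphatases (11 members) drive the cell from G2 into mitosis. From day 5 to day 6, 9 of them fell under sgControl and 8 under sgRELA, with medians of -0.86 and -0.83, and 10 rose from day 6 to day 7 under each guide, with medians of 1.15 and 1.17. CDK1, the mitotic kinase, stood at 86.9, 86.4 and 81.4 CPM on day 5, 30.7, 43.7 and 41.8 on day 6 and 112, 125 and 119.9 on day 7 under sgControl. Under sgRELA it stood at 79.7, 77.9 and 84.9, 36.6, 35.4 and 44.6 and 116, 125 and 114 CPM. The 3 days did not overlap in either guide. The log2 fold change of CDK1 was -1.13 ± 0.12 (SE) from day 5 to day 6 and 1.62 ± 0.12 from day 6 to day 7 under sgControl, with adjusted p of 1.48e-07 and 2.06e-11, and -1.06 ± 0.12 and 1.61 ± 0.12 under sgRELA, with adjusted p of 4.41e-07 and 2.97e-11. On the linear scale CDK1 on day 7 was 3.07 times its day 6 level under sgControl and 3.04 times under sgRELA.

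CCNB1, the cyclin B1 partner of CDK1, had 89.0, 94.2 and 105 CPM on day 5, 41.3, 52.8 and 49.8 on day 6 and 126, 122 and 116 on day 7 under sgControl, and 87.3, 92.9 and 111, 40.1, 43.7 and 57.6 and 143, 131 and 122 under sgRELA. Every day 6 sample was below every sample of the other days in its guide. Its rise from day 6 to day 7 was 1.34 ± 0.13 and 1.49 ± 0.13 on the log2 scale in sgControl and sgRELA. Against day 5, the day 7 level differed by 0.34 ± 0.12 under sgControl (adjusted p = 0.0677) and by 0.44 ± 0.12 under sgRELA (adjusted p = 0.0149), so that the call was made for sgRELA alone. That call was lost without replicate 1 or 2 of sgRELA day 5 or replicate 1 of sgRELA day 7, with adjusted p of 0.103, 0.0671 and 0.0860. CCNA2, cyclin A2, fell by 1.05 and 0.86 log2 units from day 5 to day 6 and then rose by 1.65 and 1.73, and was also above day 5 on day 7, by 0.60 and 0.87.

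PLK1, a kinase of centrosome maturation and mitotic exit, measured 72.7, 99.9 and 85.9 CPM on day 5, 43.0, 59.9 and 49.6 on day 6 and 114, 105 and 114 on day 7 in sgControl. In sgRELA the values were 92.9, 80.8 and 82.4, 47.4, 44.4 and 47.4 and 114, 106 and 109. Day 6 was again the lowest day without overlap. The changes from day 6 to day 7 were 1.13 ± 0.12 and 1.24 ± 0.12 (adjusted p 2.74e-08 and 5.29e-09). CDC25C, a phosphatase that activates CDK1, did not share the pattern and is named for that reason, after its values were seen. It had 16.7, 12.1 and 12.5 CPM on day 5, 14.4, 14.2 and 11.5 on day 6 and 14.7, 14.3 and 14.2 on day 7 under sgControl and 13.1, 8.04 and 12.8, 10.4, 12.9 and 7.84 and 10.1, 14.6 and 12.8 under sgRELA. Its samples overlapped between all days, and its change from day 6 to day 7 was 0.11 ± 0.23 and 0.27 ± 0.23 (adjusted p 0.852 and 0.58). It is also the member with the lowest counts, and its standard errors are 0.23 and 0.23, against 0.12 for CDK1. The related CDC25A, which acts also at the start of S phase, rose from day 6 to day 7 by 1.69 ± 0.18 and 1.51 ± 0.18. CDC25A too is named after its values were seen.

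The spindle checkpoint holds anaphase back until all chromosomes are attached, and the anaphase-promoting complex with CDC20 then starts it. Of the 8 members here, 7 fell from day 5 to day 6 and all 8 rose from day 6 to day 7 under each guide, with median rises of 1.36 and 1.15. CDC20 had 104, 139.8 and 120.2 CPM on day 5, 59.5, 74.1 and 64.3 on day 6 and 159, 174 and 181 on day 7 under sgControl. Its sgRELA values were 85.2, 106 and 94.6, 60.8, 66.9 and 59.5 and 177, 184 and 171. The 3 days were separate in both guides. Between day 5 and day 7 it rose by 0.50 ± 0.11 and 0.90 ± 0.11 (adjusted p 0.00174 and 6.41e-07). MAD2L1, which binds and blocks CDC20, rose from day 6 to day 7 by 1.64 ± 0.14 and 1.68 ± 0.14, and the checkpoint kinases BUB1 and BUB1B by 1.44 and 1.34 under sgControl and 1.47 and 1.24 under sgRELA. BUB3, the partner of both, showed the smallest rise of the 8, 0.41 ± 0.08 and 0.31 ± 0.08 (adjusted p 0.000329 and 0.00786), and its difference between day 5 and day 6 was -0.18 ± 0.08 and -0.10 ± 0.08 (adjusted p 0.17 and 0.598). Without replicate 1 of sgRELA day 7 its rise under sgRELA had an adjusted p of 0.0506. BUB3 too is named after its values were seen.

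Transcriptional regulators and chromatin proteins made up 7 members, and all 7 were higher on day 7 than on day 5 under both guides, with medians of 0.73 and 0.91. From day 5 to day 6, 5 of the 7 fell under each guide. MYBL2, which encodes B-MYB, had 129, 159 and 134 CPM on day 5, 84.5, 79.2 and 86.7 on day 6 and 242, 264 and 262 on day 7 under sgControl, and 111, 112 and 108, 79.7, 74.3 and 63.9 and 241, 244 and 246 under sgRELA. The days were separate in each guide, and the rise from day 6 to day 7 was 1.62 ± 0.09 and 1.75 ± 0.10 (adjusted p 1.81e-13 and 5.87e-14). FOXM1, a forkhead activator of mitotic genes, rose by 1.23 ± 0.11 and 1.32 ± 0.11 over the same day.

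MKI67, the gene of the Ki-67 antigen, was the most abundant of these in CPM. It had 598, 554 and 639.8 CPM on day 5, 302, 378 and 383 on day 6 and 844, 779 and 834 on day 7 under sgControl, and 531, 593 and 594, 326, 349 and 373 and 849.7, 783 and 766 under sgRELA. No 2 days overlapped within a guide. TOP2A, the topoisomerase that untangles sister DNA, had 354, 365 and 423, 194, 296 and 231 and 585, 516 and 507 CPM on days 5, 6 and 7 of sgControl, and 361, 407 and 382, 218, 249.9 and 253 and 617, 557 and 556 in sgRELA. Its days were separate as well. The 2 genes fell from day 5 to day 6 by 0.75 and 0.66 log2 units under sgControl, and rose from day 6 to day 7 by 1.21 ± 0.08 and 1.16 ± 0.11. LMNB1, a lamin of the nuclear envelope, rose by 1.28 and 1.33. CDCA3, whose protein helps to degrade the mitosis inhibitor WEE1, was the 1 member that was not lowest on day 6, and is named after its values were seen. Its values were 25.9, 19.7 and 22.6 CPM on day 5 and 25.1, 29.4 and 29.5 on day 6 under sgControl and 23.5, 28.4 and 22.1 and 28.7, 30.0 and 23.7 under sgRELA, a difference of 0.30 ± 0.16 and 0.16 ± 0.16 that was not called. Day 7 stood above these, at 45.0, 40.7 and 54.7 and 44.4, 49.9 and 58.9 CPM.

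Chromosomal passenger and kinetochore genes, 12 in all, encode the complex that corrects faulty attachments and the plates to which microtubules bind. Under sgControl 10 fell from day 5 to day 6 and under sgRELA 9, and all 12 rose from day 6 to day 7, with a median of 1.07 in either guide. CENPF, a large kinetochore protein that accumulates in G2, had 283, 291 and 300.0 CPM on day 5, 114, 139 and 139 on day 6 and 324, 287 and 288 on day 7 under sgControl, and 237, 249 and 264, 139, 129.6 and 120.3 and 329, 284 and 304 under sgRELA. Day 6 was the low day without overlap. Day 5 and day 7 overlapped under sgControl but not under sgRELA, with a log2 difference of 0.04 ± 0.09 and 0.29 ± 0.09 (adjusted p 0.846 and 0.0271). The latter call was lost without replicate 1 or 2 of sgRELA day 5 or replicate 1 or 3 of sgRELA day 7, with adjusted p of 0.141, 0.0850, 0.163 and 0.0701. INCENP, the scaffold of the passenger complex, changed from day 5 to day 6 by -0.28 ± 0.09 and -0.41 ± 0.09 (adjusted p 0.0363 and 0.0023). The call under sgControl was lost without any 1 of 6 RNA samples (replicates 1 and 2 of sgControl day 5, 2 and 3 of sgControl day 6, 2 of sgControl day 7 and 1 of sgRELA day 7), with adjusted p between 0.0502 and 0.109. The gene rose by 0.67 ± 0.09 and 1.05 ± 0.09 from day 6 to day 7. BIRC5, survivin, rose over that day by 1.15 ± 0.12 and 1.33 ± 0.12. KNL1, the platform on which the BUB proteins assemble, rose by 0.90 ± 0.09 and 1.01 ± 0.09.

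The 6 kinesins, motors that build the spindle and divide the cell, rose without exception from day 6 to day 7 in both guides, with medians of 1.02 and 1.30, and 6 and 5 of them fell from day 5 to day 6. KIF11, which pushes spindle poles apart, had 129, 109.5 and 140.2 CPM on day 5, 79.3, 73.0 and 73.0 on day 6 and 217, 232 and 192 on day 7 under sgControl, and 125, 133 and 132, 74.8, 89.9 and 79.8 and 214, 215 and 199 under sgRELA. All 3 days were apart in each guide. From day 5 to day 7 it rose by 0.76 ± 0.10 and 0.69 ± 0.10. KIF20A, a motor of the central spindle, rose by 0.59 and 0.81 over the same 2 days. KIF23, which works with RACGAP1 at the midzone, differed by 0.26 ± 0.13 and 0.33 ± 0.13 (adjusted p 0.194 and 0.0924). KIF2C, which helps to release faulty attachments of microtubules, rose from day 6 to day 7 by 0.93 ± 0.11 and 1.24 ± 0.11.

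All 9 spindle assembly factors fell from day 5 to day 6 and all 9 rose from day 6 to day 7 under each guide, with median changes of -0.59 and -0.69 and of 1.14 and 1.23. TACC3, which stabilises spindle fibres, had 67.4, 79.1 and 77.6 CPM on day 5, 57.7, 47.0 and 44.7 on day 6 and 126, 114 and 121 on day 7 under sgControl, and 74.9, 74.7 and 71.8, 45.5, 41.9 and 43.3 and 135, 138 and 130.0 under sgRELA. Its 3 days did not overlap. ASPM, a spindle pole protein, NUSAP1, a binder of microtubules, and DLGAP5, which stabilises fibres at the kinetochore, rose from day 6 to day 7 by 1.22, 1.03 and 1.32 under sgControl and by 1.07, 1.23 and 1.43 under sgRELA. CKAP5, a microtubule polymerase that also acts outside mitosis, is named after its values were seen because its mean on day 7 was not above that on day 5 in either guide. It had 494, 546 and 526 CPM on day 5, 337, 418 and 370.0 on day 6 and 500.2, 476 and 482 on day 7 under sgControl, and 517, 545 and 524, 346, 359 and 395 and 496, 501 and 479 under sgRELA. The day 7 samples of sgRELA lay below those of day 5 without overlap, but the log2 difference, -0.10 ± 0.07, was not called (adjusted p = 0.454).

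The 3 cytokinesis genes fell from day 5 to day 6 and rose from day 6 to day 7 under both guides, and none differed by the test between day 5 and day 7. ECT2, the activator of RHOA at the cleavage plane, had 82.4, 86.6 and 95.5 CPM on day 5, 31.3, 46.8 and 36.3 on day 6 and 89.2, 91.4 and 83.1 on day 7 under sgControl, and 72.7, 89.5 and 92.5, 40.1, 43.3 and 51.4 and 84.8, 79.1 and 83.7 under sgRELA. Day 5 and day 7 overlapped in both guides. Its changes were -1.21 ± 0.13 and -0.92 ± 0.13 from day 5 to day 6, and -0.00 ± 0.13 and -0.04 ± 0.13 from day 5 to day 7. ANLN, anillin of the contractile ring, differed between day 5 and day 7 by 0.33 ± 0.12 and 0.21 ± 0.12 (adjusted p 0.0552 and 0.288), and RACGAP1 by 0.16 ± 0.10 and 0.22 ± 0.10 (adjusted p 0.349 and 0.183).

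Condensin, which compacts chromosomes, was represented by 4 subunits, and all 4 fell and then rose under each guide. SMC4, the ATPase shared by both condensins, had 78.8, 80.3 and 82.7 CPM on day 5, 29.6, 41.0 and 43.6 on day 6 and 78.3, 73.0 and 65.0 on day 7 under sgControl, and 67.6, 72.0 and 75.0, 32.8, 35.4 and 42.9 and 70.4, 76.8 and 75.3 under sgRELA. Day 6 was the lowest day, and day 7 of sgControl lay below day 5 without overlap, but the differences between day 5 and day 7, -0.16 ± 0.13 and 0.05 ± 0.13, were not called (adjusted p 0.49 and 0.874). NCAPH, the kleisin of condensin I, had 104, 103 and 107, 67.4, 73.1 and 72.3 and 170.1, 176 and 158 CPM on the 3 days of sgControl and 98.4, 82.5 and 101, 65.5, 64.4 and 68.9 and 150.1, 170.0 and 177 of sgRELA. Its days were separate, and day 7 exceeded day 5 by 0.68 ± 0.10 and 0.82 ± 0.10 (adjusted p 6.41e-06 and 3.68e-07). NCAPG and NCAPD2, the other subunits measured, differed between these days by 0.37 and 0.12 under sgControl, neither called, and by 0.28 and 0.40 under sgRELA, where NCAPD2 was called (adjusted p = 0.002).

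**Figure D4:**
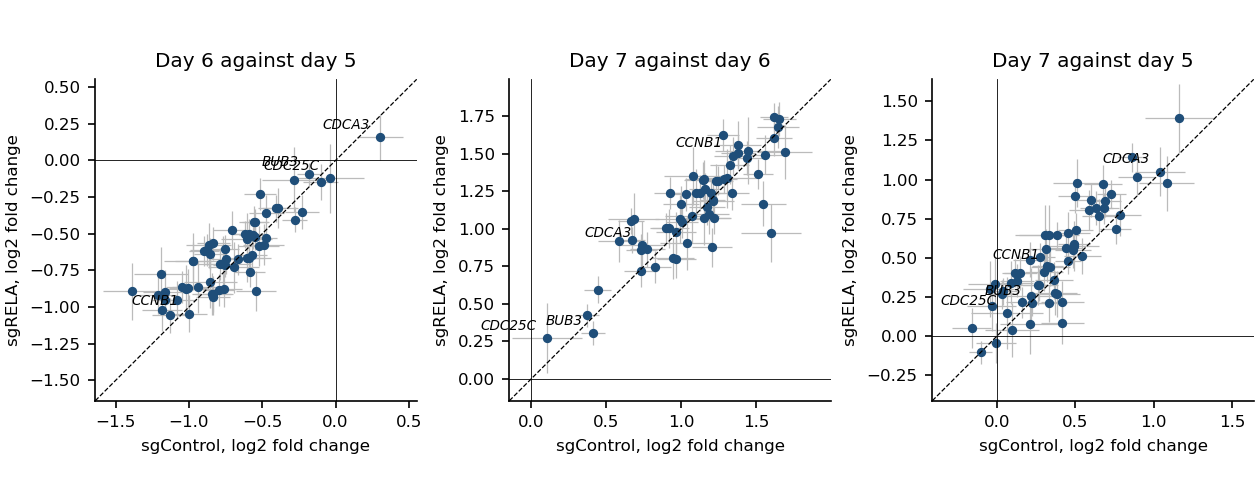
Log2 fold change of each of the 60 genes under sgControl (horizontal) and sgRELA (vertical) for the 3 pairs of days, with standard errors as grey bars and the line of equality dashed. Nearly all points lie below 0 for day 6 against day 5 and all lie above 0 for day 7 against day 6. In the latter the change under sgRELA differed from that under sgControl by -0.63 to 0.39 log2 units. BUB3, CCNB1, CDC25C and CDCA3 are labelled.

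The next question was whether the guide to RELA changed these genes. On each day and over the mean of the 3 days, edgeR called 0 of the 60 members between sgRELA and sgControl, while it called 0.138%, 0.214%, 0.0907% and 0.388% of all genes on day 5, day 6, day 7 and over the mean. An unadjusted p under 0.05 was found for 6, 5, 0 and 5 members, and for 1641, 1672, 1290 and 1971 of the 27553 genes tested. The log2 difference over the mean of days lay between -0.28 and 0.11, with a median of -0.03 and a median SE of 0.07. The median was -0.10 on day 5, where 48 of the 60 members were below 0, -0.03 on day 6 (38 below 0) and 0.02 on day 7 (28 below 0). In their share of all counts on day 5, the 3 sgRELA samples (0.592% to 0.621%) lay below the 3 sgControl samples (0.625% to 0.661%), while the single libraries overlapped, at 0.574% to 0.624% and 0.609% to 0.690%. On days 6 and 7 the shares of the guides overlapped. The 95% interval of the difference over the mean of days lay within 0.5 log2 units of 0 for 59 of the 60 genes, the exception being CDC25C, whose interval reached -0.55.

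The smallest adjusted p belonged to MYBL2. Its day 5 values, 129, 159 and 134 CPM under sgControl and 111, 112 and 108 under sgRELA, did not overlap, while those of day 7 did. The log2 difference was -0.35 ± 0.09 on day 5, -0.20 ± 0.09 on day 6 and -0.07 ± 0.09 on day 7, with adjusted p of 0.278, 0.792 and 1, and -0.21 ± 0.05 over the mean of days (adjusted p = 0.0936). DESeq2 called it on day 5 (adjusted p = 0.0377) and over the mean (adjusted p = 0.0120). INCENP on day 6 had 118, 110.1 and 113 CPM under sgControl and 90.7, 99.8 and 87.2 under sgRELA, again without overlap, and a difference of -0.30 ± 0.09 (adjusted p = 0.314, and 0.0291 by DESeq2). On day 7 the difference of INCENP was 0.09 ± 0.08.

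By samples alone, 11 members were lower under sgRELA on day 5 without overlap (5.17% of all genes), among them CCNA2, FOXM1, MYBL2, CENPF and SMC4, and 1, CCNF, was higher (5.85% of all genes). On day 6 INCENP was lower and no member higher (5.39% and 5.91% of all genes), and on day 7 CDC25A was lower and 8 members were higher (5.20% and 5.24%), among them BIRC5, KNL1, TPX2 and TACC3. These genes are named after their values were seen. The test of whether the change over days differed between the guides called 0 members and 0.00363% of all genes, and DESeq2 called 0 members as well. An unadjusted p under 0.05 was found in the edgeR test for 2 members and for 1291 of the 27553 genes tested. Among the members the smallest p was that of INCENP. Its rise from day 6 to day 7 was larger under sgRELA by 0.39 ± 0.12 log2 units (95% interval 0.14 to 0.63, adjusted p = 0.898). Members called over days in only one guide are therefore not shown to differ between them. Such differences were known less well: the 95% interval lay within 0.5 log2 units of 0 for 32 members from day 5 to day 6, 32 from day 6 to day 7 and 29 from day 5 to day 7.

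**Figure D5:**
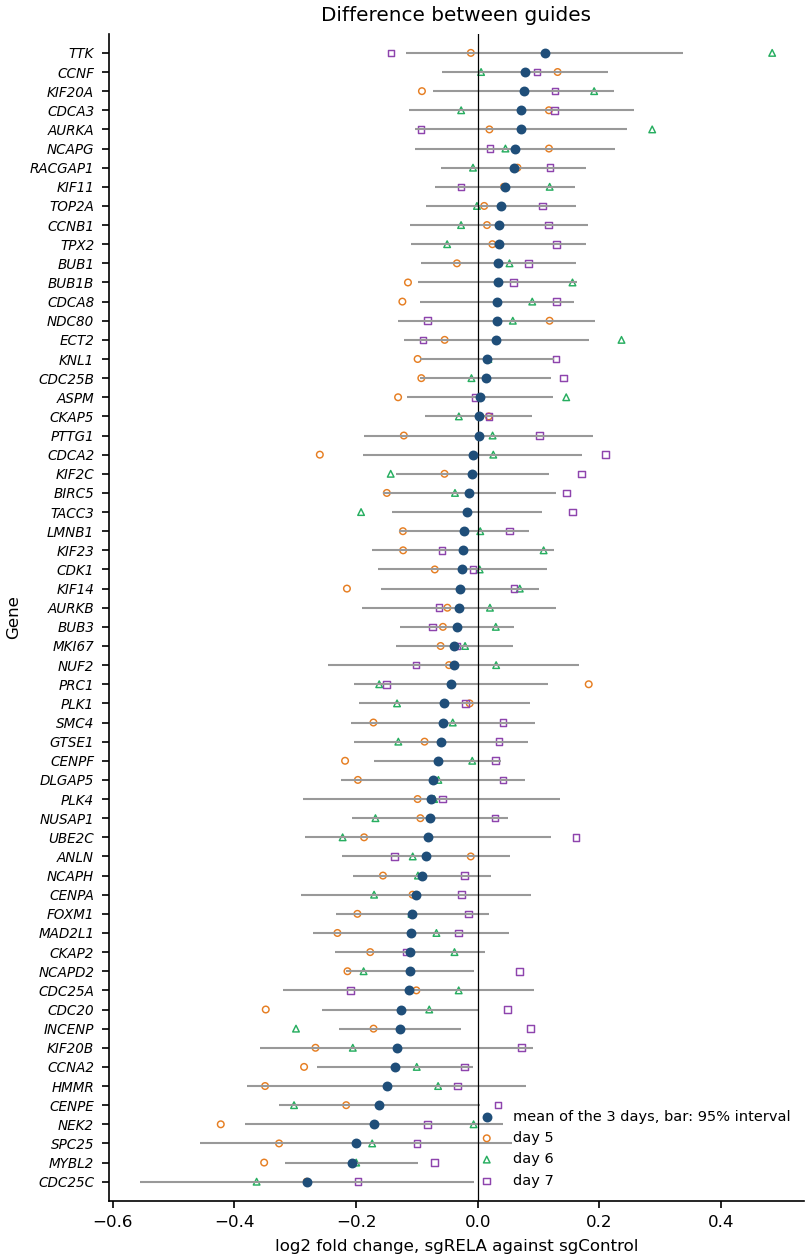
Log2 fold change of sgRELA against sgControl for each of the 60 genes, ordered by the mean of the 3 days (filled points, with 95% intervals as bars), with the single days as open symbols. The means lie between -0.28 for CDC25C and 0.11 for TTK, and edgeR called no member. DESeq2 called MYBL2 on day 5 and over the mean of days, and INCENP on day 6 alone.

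Other genes of the same processes, 76 in a list of regulators, kinetochore, spindle, anaphase, cytokinesis and condensin genes of which 75 were tested, moved the same way with smaller medians. From day 5 to day 6, 35 fell under sgControl and 34 under sgRELA (medians -0.44 and -0.43), and from day 6 to day 7, 60 and 63 rose (0.84 and 0.92). Between day 5 and day 7, 27 and 24 were higher (0.31 and 0.41). In the other direction 2 genes were called under sgControl, and are named for that: FZR1, an activator of the anaphase-promoting complex in G1, between day 6 and day 7 (-0.37 ± 0.13, adjusted p = 0.048) and ANAPC4, a subunit of that complex, between day 5 and day 7 (-0.39 ± 0.13, adjusted p = 0.049). These calls were lost without any 1 of 13 and 16 of the 18 RNA samples, with adjusted p of up to 0.467 and 0.239. SKA3, which couples kinetochores to microtubules, rose from day 6 to day 7 by 1.59 ± 0.14 and 1.63 ± 0.14, and NCAPD3, a condensin II subunit, by 1.16 ± 0.08 and 1.01 ± 0.08. The motor KIF18B rose by 1.25 ± 0.11 and 1.65 ± 0.11, and the spindle protein SPAG5 by 1.21 ± 0.10 and 1.17 ± 0.10.

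A list of 58 G1/S and replication genes gave 34 and 29 falls from day 5 to day 6 (medians -0.48 and -0.45), 54 and 55 rises from day 6 to day 7 (1.16 and 1.10) and 41 and 40 rises from day 5 to day 7 (0.62 and 0.67). Thus the members had the larger fall in the median and the smaller net rise over the 2 days, a difference between lists that was not tested. In the other direction, 1 gene of the G1/S list was called higher on day 6 than on day 5 under sgRELA (2.57% of all genes). Another call was of 1 gene lower on day 7 than on day 5 under sgControl (6.36% of all genes). Of 16 inhibitors and brakes of the cycle, 14 were tested. From day 5 to day 6, 2 rose and 2 fell under sgControl, and 0 rose and 2 fell under sgRELA. Over all genes 3.29% rose and 5.58% fell under sgControl, and 2.57% rose and 4.34% fell under sgRELA. From day 6 to day 7, 2 rose and 3 fell under sgControl, where 8.25% of all genes rose and 6.31% fell. Under sgRELA 2 rose and 4 fell, where 7.21% of all genes rose and 5.02% fell. CDKN1B, the CDK inhibitor p27, had 132, 109 and 134 CPM on day 5, 91.4, 107 and 121 on day 6 and 76.4, 70.2 and 70.3 on day 7 under sgControl, and 126, 118 and 137, 128, 121 and 106 and 74.3, 73.9 and 74.2 under sgRELA. It was lowest on day 7, with a fall from day 6 of 0.56 ± 0.11 and 0.68 ± 0.11. BTG1, an antiproliferative gene, fell by 0.61 and 0.89 and CCNG1, cyclin G1, by 0.58 and 0.40 over that day. The CCNG1 call under sgRELA was lost without replicate 2 of sgRELA day 6 (adjusted p = 0.0507) or replicate 1 of sgRELA day 7 (adjusted p = 0.0569). RB1, the retinoblastoma gene, went the other way, with 0.74 and 0.39.

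In the guide comparison, edgeR called 1 gene of these further G2/M genes, CIT, and DESeq2 called CIT and, on day 6, KIF18B (log2 difference -0.41, adjusted p = 0.0466). CIT is named after its values were seen. CIT, the citron kinase of cytokinesis, had 152, 138 and 157 CPM on day 5, 102, 128 and 128 on day 6 and 166, 175 and 188 on day 7 under sgControl, and 220.2, 227 and 207, 152, 142 and 161 and 216, 238 and 237 under sgRELA. Every sgRELA sample was above every sgControl sample of its day. The log2 difference was 0.55 ± 0.09 on day 5 (adjusted p = 0.00274), 0.35 ± 0.09 on day 6 (adjusted p = 0.218), 0.38 ± 0.09 on day 7 (adjusted p = 0.182) and 0.43 ± 0.05 over the mean of days (adjusted p = 7.12e-06). DESeq2 called it on days 6 and 7 as well (adjusted p 0.0319 and 0.0215). The edgeR call on day 5 was lost with the first libraries alone and with the second libraries alone (adjusted p of up to 0.189), while that over the mean of days held under all 26 alternatives run. CIT rose by 0.57 ± 0.09 and 0.60 ± 0.09 from day 6 to day 7 under sgControl and sgRELA.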

How the data were processed

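Counts per gene for 36 RamDA-seq libraries were deposited by the authors as whole numbers without normalization; cutadapt 1.18, STAR 2.7.9a and GRCh38 are named in the submitters' processing notes. The counting tool, annotation, strand setting and treatment of reads with several matches are not given in the sources used here. Groups came from the labels. Both libraries of each RNA were summed, and the 18 sums were fitted with 6 group means in edgeR 4.0.16 (R 4.3.3; limma 3.58.1), with TMM factors, the filterByExpr filter (minimum count 10), its quasi-likelihood test, with p-values adjusted by Benjamini-Hochberg over 27553 genes. Standard errors and 95% intervals come from the F statistic. CPM are scaled with the TMM factors. Precision rests on 150 or more counts per member and RNA sample and on 3 samples a group. The labels call the transductions triplicate and say no more on the independence of cultures. The p-values set differences against the spread between these samples, which may be smaller than that between independent cultures. Coordinates and exon lengths are those of GENCODE v29 on GRCh38, promoters those of RefSeq on GRCh38.p14.

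The members, the gene lists and the tests were chosen with earlier results of these data known. Named were CDK1, CCNB1, PLK1, MKI67 and TOP2A, up to 4 members per role and up to 4 genes each of the further G2/M and inhibitor lists with the smallest p in an F test over days, members called between guides, and RELA. Other genes were named after their values were seen. Alternatives were DESeq2 1.42.0, other scalings, no filter, single libraries, a replicate block and leaving out each RNA sample. The fits were tested on simulated data.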

Additional observations from a re-analysis of the deposited data

Results flagged for a closer look

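In groups of 6 libraries, single libraries far from the others of their group were searched for by Dixon's criterion. The searches, 36 in all, covered the member share and the levels of CDK1, CCNB1, PLK1, MKI67 and TOP2A. Chance marks about 1 in 20 where values are independent. Here 2 libraries share each RNA sample and the member share includes these genes, so that rate need not hold. The criterion marked 4 values in 2 libraries. Library 1 of sgControl day 6 replicate 1 had 18.3 CPM of CCNB1, where the other 5 libraries had 47.6 to 59.6, and 214 CPM of MKI67, where the others had 359 to 407. Library 1 of sgRELA day 5 replicate 1 had a member share of 0.574% of counts, where the others had 0.609% to 0.624%, and 478 CPM of MKI67, where the others had 577 to 594. The former library lies in the low group of its comparison. Without that library and library 1 of sgControl day 5 replicate 2, which detected 25398 genes where the other 5 of its group detected 26705 to 27657, sgControl gave 52 falls from day 5 to day 6 and 59 rises from day 6 to day 7.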

How the results depend on the processing

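All calls of members kept their direction under each alternative run. The counts for day 6 against day 5, day 7 against day 6 and day 7 against day 5, 53, 59 and 31 under sgControl and 50, 59 and 40 under sgRELA, lay within 1.5 times of this under the alternatives, except with the first library of each RNA sample alone, which gave 31 falls from day 5 to day 6 and 8 rises from day 5 to day 7 under sgControl and 13 and 16 under sgRELA. The cause was not tested; the medians with these libraries were -0.77, 1.19 and 0.45 and -0.66, 1.22 and 0.46. The second libraries alone gave 44, 58 and 23 and 41, 57 and 32. Leaving out each RNA sample in turn gave 50 to 53, 59 to 59 and 24 to 38 under sgControl, 45 to 53, 58 to 59 and 33 to 42 under sgRELA, and 0 to 0 between guides and for the interaction. DESeq2 called 1 member between guides on day 5, 1 on day 6 and 1 over the mean of days, where edgeR called 0. Over all genes DESeq2 called 73, 126 and 222 in these comparisons, where edgeR called 38, 59 and 107. All genes called under these alternatives numbered 430 to 3447, 1879 to 4791 and 820 to 4378 for the 3 pairs of days under sgControl and 196 to 2883, 961 to 4137 and 669 to 4312 under sgRELA, against 2445, 4012, 3585, 1904, 3368 and 3420 in the edgeR fit, and the lowest always came with the first libraries alone. Between guides they numbered 15 to 73, 15 to 126, 13 to 55 and 47 to 222, against 38, 59, 25 and 107. Scaling by total count alone set the median of all genes at 0.12 and -0.17 for the first 2 pairs of days under sgControl, and that of the members at -0.67 and 1.05. For single named genes, 12690 of the values under alternatives kept their side of the threshold, 296 lost a call, 48 gained one and 0 reversed.

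Same-numbered samples did not deviate together: their correlations had means of 0.00555 between guides and -0.0120 within a guide, and the own number was the best match for 6 of 18 samples. The numbers were therefore not taken to pair the samples. With the replicate block the members called were 53, 59 and 31 under sgControl, 51, 59 and 39 under sgRELA and 0 between guides, and with a block within each guide 52, 59 and 29 and 50, 59 and 39.

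In the guide comparison the standard error over the mean of days was 0.13 for CDC25C and 0.13 for SPC25, the members with the fewest counts in their lowest sample (150 and 157); how much of this comes from depth was not tested.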
